A study of Mus musculus with 8 samples.

Results

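The mRNAs described here belong to class II odorant receptor (OR) genes of mouse chromosome 7, taken as the genes with a symbol from Olfr471 to Olfr542 or from Olfr693 to Olfr716 that had an array transcript cluster of their own, pseudogenes left out. They numbered 68 genes, each with 1 transcript cluster, of 1023 OR clusters with a single symbol and 23410 clusters tested. All 68 lay on chromosome 7 in the RefSeq gene table. RefSeq lists 75 protein-coding genes with a symbol of Olfr and a plain number in these ranges. The other 7 (Olfr694, Olfr487, Olfr503, Olfr506, Olfr519, Olfr533 and Olfr538) were measured only by clusters shared with further receptors. The ranges and the class I range Olfr543 to Olfr692 do not hold every OR of the chromosome: 43 other OR clusters of chromosome 7 fell outside them. These 43 were set apart by number only and were not sorted into class I and class II.

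Olfactory mucosae came from 8 mice at postnatal day 26 on a mixed 129 x C57BL/6J background, with 1 Affymetrix Mouse Gene 1.0 ST array for each mouse. The 4 knockouts were OmpCre:Lhx2(fl/fl), in which Cre expressed from the Omp locus, active in mature olfactory sensory neurons (OSNs), can recombine both floxed Lhx2 alleles. Of the littermate controls, 3 were OmpCre:Lhx2(fl/+) and 1, control replicate 1, was Lhx2(fl/+) without Cre, so all 8 mice carried at least 1 floxed allele. The comparison asks how OR mRNAs depend on Lhx2 once OSNs have matured, in a model where recombination is incomplete and where immature OSNs and basal cells keep Lhx2.

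ORs are G protein-coupled receptors that bind odorants on the cilia of OSNs, and each OSN normally expresses 1 allele of 1 OR gene. Class I ORs resemble the receptors of fish, while class II ORs are the larger tetrapod group and lie in clusters on many chromosomes. OR promoters commonly hold homeodomain sites, which LIM homeodomain factors such as Lhx2 can bind, and O/E sites, which are bound by the Ebf family. Because an OR mRNA comes from the few neurons that chose its gene, fewer neurons expressing a receptor and less mRNA in each neuron cannot be told apart by arrays of whole mucosa. The paper also counted cells by in situ hybridization in these knockouts. For tested ORs with decreased mRNA, it reports lower frequencies of expressing OSNs.

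The upstream sequences of members show what such promoters look like beside the changes measured. RefSeq (GRCm38.p6) gave a window before the annotated start for 63 of the 68 genes. In 53 of these the letters ATG began within 5 bases of that start, which was taken as a start codon. Windows of this kind do not mark a transcription start. Among the other windows, 6 belonged to genes spanning at least 2000 bases, and their annotated start was taken to lie upstream of the start codon. Of those 6, the pair with the largest decreases (Olfr536 and Olfr478) and the pair with the smallest (Olfr702 and Olfr710) are printed as the 250 bases before the start, 5′ to 3′ on the strand of the gene. Capitals mark TAATNA, the core of many homeodomain sites, and CCCNNGGG, the core of O/E sites, on either strand.
Olfr536, chr7:140507319-140507568, minus strand: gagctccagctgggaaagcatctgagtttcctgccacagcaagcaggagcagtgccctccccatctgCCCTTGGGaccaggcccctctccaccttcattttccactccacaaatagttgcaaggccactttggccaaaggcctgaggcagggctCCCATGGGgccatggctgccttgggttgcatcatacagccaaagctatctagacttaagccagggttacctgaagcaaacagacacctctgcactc
Olfr478, chr7:108033968-108034217, minus strand: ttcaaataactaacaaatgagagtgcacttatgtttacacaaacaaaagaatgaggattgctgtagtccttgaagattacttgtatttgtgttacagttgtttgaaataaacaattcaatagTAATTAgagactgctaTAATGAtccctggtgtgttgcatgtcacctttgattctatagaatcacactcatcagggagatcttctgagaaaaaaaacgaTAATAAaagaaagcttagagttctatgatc
Olfr702, chr7:106826744-106826993, minus strand: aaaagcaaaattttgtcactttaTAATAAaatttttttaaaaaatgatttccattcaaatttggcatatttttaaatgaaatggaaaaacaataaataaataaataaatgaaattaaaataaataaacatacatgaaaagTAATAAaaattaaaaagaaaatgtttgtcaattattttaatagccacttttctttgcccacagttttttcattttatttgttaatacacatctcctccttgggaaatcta
Olfr710, chr7:106948313-106948562, minus strand: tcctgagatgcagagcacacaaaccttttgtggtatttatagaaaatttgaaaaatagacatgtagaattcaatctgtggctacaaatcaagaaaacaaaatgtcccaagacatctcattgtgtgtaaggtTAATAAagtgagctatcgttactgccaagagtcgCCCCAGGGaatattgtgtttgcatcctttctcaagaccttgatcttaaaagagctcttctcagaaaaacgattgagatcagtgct
Olfr536 held CCCNNGGG beginning 183 and 96 bases before the start and no TAATNA. Olfr478 held TAATNA at 128, 112 and 30 bases before the start and no CCCNNGGG, and its first match was the full TAATTA. The pair with small changes also held matches, with TAATNA at 227 and 110 bases in Olfr702, and with TAATNA at 119 and CCCNNGGG at 85 bases in Olfr710. The windows of Olfr711 and Olfr701, which make up the remaining 2 of the 6, held no match and 1 TAATNA, respectively.

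Over all 63 member windows, TAATNA occurred in 39 (61.9%), beside 64.1% of 881 windows of other ORs and 24.3% of all 32851 windows in the table. These sets differ in kind, since ATG began within 5 bases of the annotated start in 53 member windows and 662 of other ORs, but in only 3179 of all windows. A match of so few letters can occur by chance, so the count over all windows is not a count of start codons. TAATTA, which TAATNA includes, occurred in 11.1% of member windows, 18.6% of other OR windows and 4.84% of all. CCCNNGGG occurred in 4 member windows (6.35%), in 2.5% of other OR windows and in 11.8% of all, and the same 4 member windows, by count, held the longer CCCNNGGGA. In the 10 member windows without ATG at that place, TAATNA was present in 8 and CCCNNGGG in 2. In the 219 such windows of other ORs the shares were 67.1% and 7.31%. These are letter matches only, and whether any is a binding site was not tested.

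Lhx2 itself was lower in every knockout, at 11.99 to 12.17 on the log2 scale against 12.29 to 12.39 in controls (difference -0.25 ± 0.06 SE, adjusted p = 0.0383). Its transcript cluster covers the whole gene, including exons outside the floxed part. Markers of mature OSNs also fell: 16 of 19 measured genes of the list were called lower and 0 higher by limma (0 higher at an unadjusted p under 0.05, 1 by the methods' t-test), with a median of -0.49, and the mean of the list was 12.33 to 12.34 in the 4 controls and 11.70 to 11.77 in the 4 knockouts. Omp, the defining marker of mature OSNs, was high in every array and differed by -0.84 ± 0.15 (adjusted p = 0.00568). Cre is inserted into the Omp locus itself in all 4 knockouts and in all controls except replicate 1. Omp was 13.78 in that control, 13.22 to 13.56 in the other controls and 12.37 to 12.88 in knockouts. The part of the insertion in these values was not tested. The part of the decrease of mature OSN markers in the OR changes was not tested either, and OR values relative to the list are given below. For immature OSNs, 2 of 14 markers were called lower and 1 higher, with a median of 0.04. Among markers of basal, sustentacular, gland and respiratory, macrophage, blood and ensheathing cells, 1 of 50 was called, Foxj1 (-0.42 ± 0.10, adjusted p = 0.0335), a factor of multiciliated cells such as those of respiratory epithelium.

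Most of the 68 chromosome 7 class II OR mRNAs were less abundant in OmpCre:Lhx2(fl/fl) mice. By limma with Benjamini-Hochberg adjustment over all clusters tested (called at an adjusted p under 0.05), 57 were called lower and 0 were called higher, while 11 were not called. Of all 23410 clusters tested, 6.29% were called lower and 2.10% higher, so the member share of 83.8% lay far above the background. The median change was -1.05 on the log2 scale, a decrease of 51.6%, beside a median of 0.05 over all clusters tested. No member was higher at an unadjusted p under 0.05 or by the methods' t-test. In 58 members all 4 knockouts lay below all 4 controls, a pattern found in 7.83% of clusters tested, and in the other 10 the groups overlapped.

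The changes spread widely around that median. They ran from -2.78 in Olfr541 to 0.14 in Olfr512, with quartiles of -1.55 and -0.54 and an SD between members of 0.65, whereas the median SE of a single change was 0.10 (range 0.06 to 0.22). A decrease of more than 2-fold was measured for 37 members and of more than 4-fold for 5. The mice themselves agreed closely: the mean of the 68 values was 8.06, 7.96, 7.93 and 8.03 in the 4 controls and 6.92, 6.95, 6.98 and 6.87 in the 4 knockouts (in order of replicate here and below). That difference of -1.07 (8.0 ± 0.06 against 6.93 ± 0.05, SD, n = 4 each) was over 10 times either SD. Control replicate 1, which lacks Cre, lay 0.09 above the mean of the other 3 controls.

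The decrease was present in each of the 3 groups of mouse numbers in the sample titles, which begin with 5, 7 or 9 and are treated as a possible batch. The mean over members differed by -1.08 among the mice numbered from 5, by -0.95 among those from 7 and by -1.16 among those from 9, and 60 of the 68 members were lower in all 3. The first of these groups held 2 knockouts and 2 controls, and the other two held 1 of each.

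**Figure D1:**
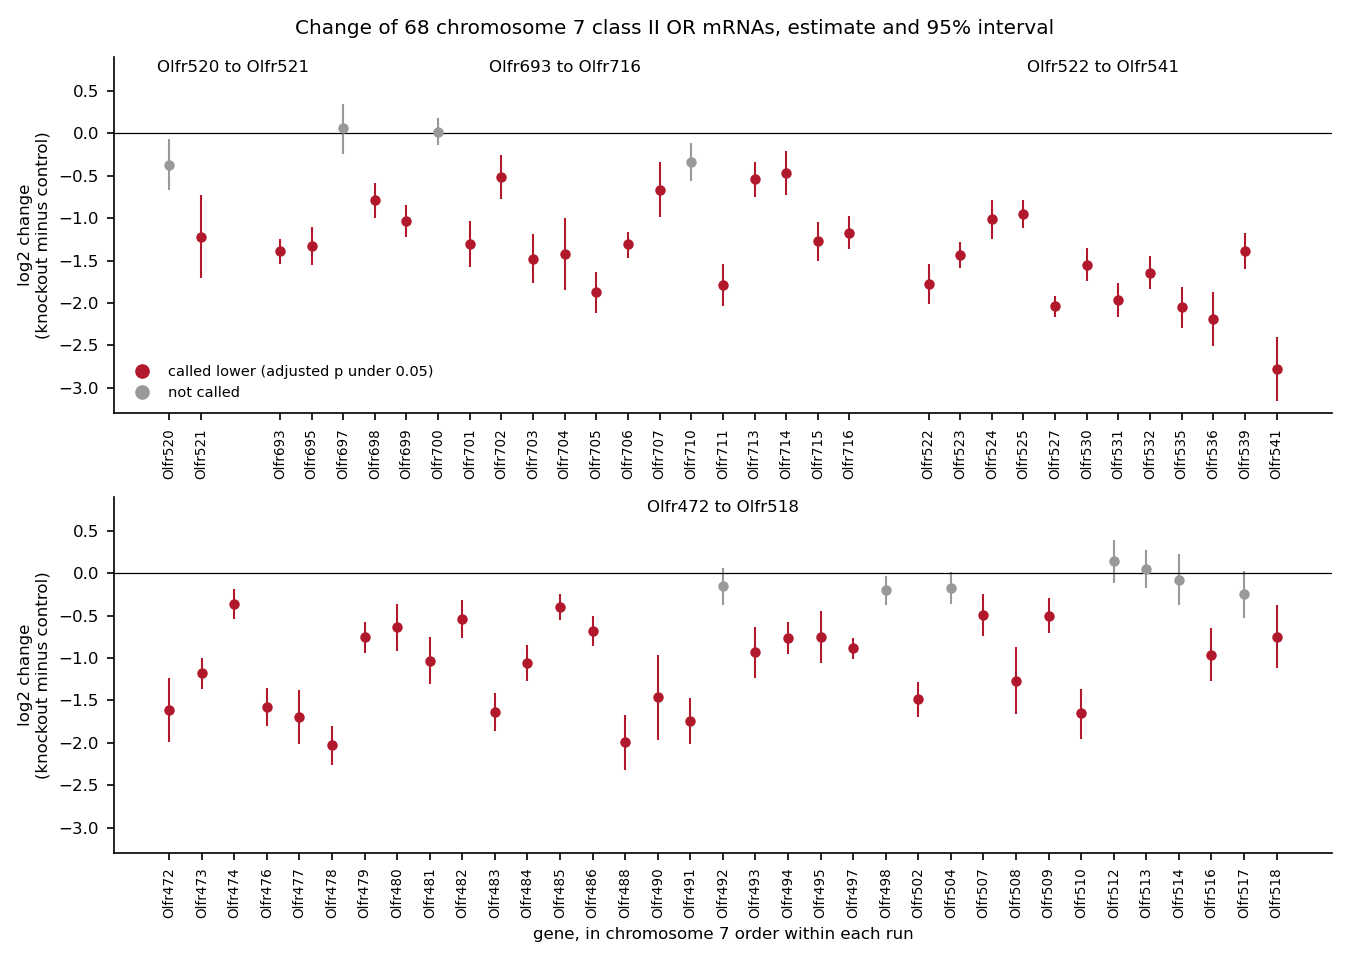
Log2 change (knockout minus control) of each of the 68 chromosome 7 class II OR mRNAs in gene order within the 4 runs, with 95% confidence intervals of the limma fit. Red points were called lower at an adjusted p under 0.05 (57 genes), grey points were not called (11 genes), and the run Olfr522 to Olfr541 holds red points only.

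In the order of genes on the chromosome (RefSeq, GRCm38.p6), the members formed 4 runs, a new run beginning wherever at least 3 protein-coding genes that are not receptors lay between neighbours. Olfr520 and Olfr521 made a run of 2, Olfr693 to Olfr716 a run of 19, Olfr472 to Olfr518 a run of 35 and Olfr522 to Olfr541 a run of 12. The plot of change in gene order shows that the runs did not move alike. Their control values differed too. The median control mean was 9.54 from Olfr522 to Olfr541 and 8.1 from Olfr693 to Olfr716. It was 7.93 from Olfr472 to Olfr518 and 7.28 in the pair Olfr520 and Olfr521.

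All 12 members from Olfr522 to Olfr541 were called lower, with changes from -2.78 to -0.95 and a median of -1.71. Their mean fell from 9.44 ± 0.06 in controls to 7.71 ± 0.05 in knockouts (SD, n = 4 each), a difference of -1.73 or 69.9%. The lowest control mean was 9.36 and the highest knockout mean 7.76, and the difference was nearly the same among mice numbered from 5 (-1.72), 7 (-1.75) and 9 (-1.73).

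From Olfr693 to Olfr716, 16 of 19 were called lower and 3 were not, with a median of -1.17 and a range of -1.87 to 0.06. The mean of this run went from 7.93 ± 0.05 to 6.95 ± 0.03, a difference of -0.98. From Olfr472 to Olfr518, 28 of 35 were called lower and 7 were not, with a median of -0.76 and a range of -2.03 to 0.14. Its mean went from 7.58 ± 0.09 to 6.68 ± 0.07, a difference of -0.90, and among mice numbered from 5, 7 and 9 it was -0.91, -0.72 and -1.05. The 7 members of that run that were not called all lay among the 18 genes from Olfr492 onward, where 11 were called and the median was -0.62, whereas all 17 genes before Olfr492 were called, with a median of -1.18. This division was made after the values were seen and has no test.

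In the pair Olfr520 and Olfr521, only Olfr521 was called (-1.22 ± 0.22, adjusted p = 0.00475). The mean of the pair differed by -1.04 among mice numbered from 5, by -0.16 among those from 7 and by -0.94 among those from 9. The difference between runs was not tested, and neither was the part of the control values in that difference.

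**Figure D2:**
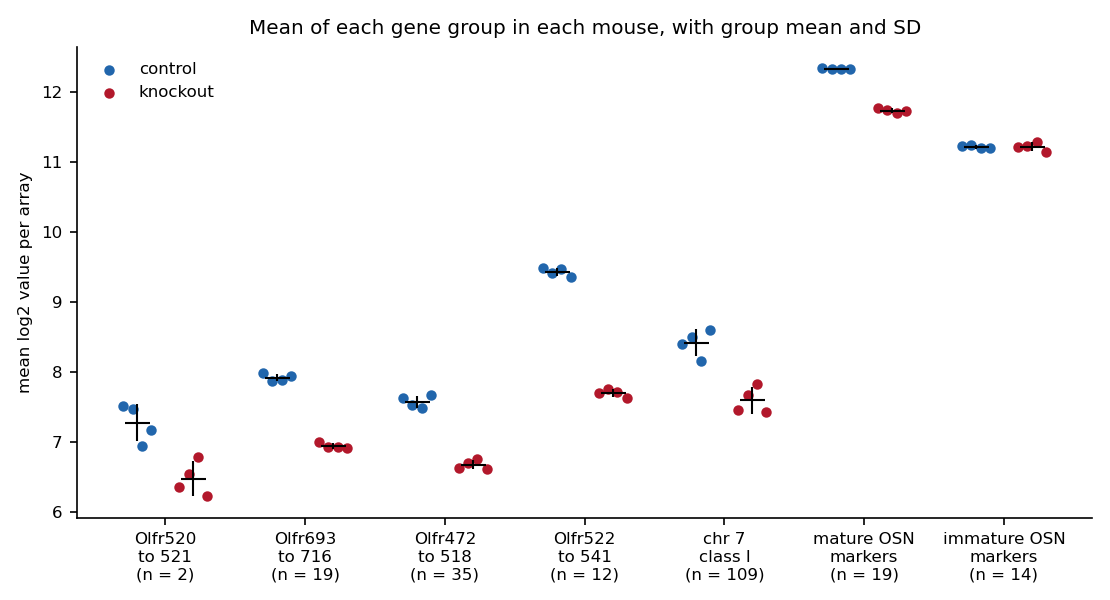
Mean log2 value of each group of genes in each of the 8 mice (points, control in blue and knockout in red), with the group mean and SD over 4 mice (black). The 4 knockouts lie below the 4 controls in every receptor group and for the mature OSN markers, while the immature OSN markers have the same mean of 11.22 in both groups.

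Olfr541 had the largest decrease of the 68. Controls gave 9.73, 9.66, 9.45 and 9.08, and knockouts gave 6.73, 7.09, 6.46 and 6.49. Every knockout lay about 2 log2 units or more below the lowest control, and the difference was -2.78 ± 0.17 (adjusted p = 4.22e-06), a level 6.89 times lower.

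Of the 10 largest called decreases, 6 belonged to this run. Olfr536, whose upstream sequence is printed above, had the highest control mean of all members and went from 10.71, 10.48, 11.18 and 10.57 in controls to 8.71, 8.59, 8.52 and 8.39 in knockouts (-2.19 ± 0.14, adjusted p = 6.1e-06). Olfr527 varied least, at 9.50 to 9.64 in controls and 7.53 to 7.58 in knockouts (-2.04 ± 0.06, adjusted p = 2.79e-07). Olfr535 went from 9.54 to 9.88 in controls to 7.36 to 7.81 in knockouts (-2.05 ± 0.11). The groups were far apart in each of these genes, and the smaller decreases of Olfr531 (-1.96), Olfr522 (-1.78), Olfr530 (-1.55) and Olfr523 (-1.43) were likewise called without overlap. At the other end of this run, Olfr524 (-1.01) and Olfr525 (-0.95) changed least.

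Within Olfr472 to Olfr518, Olfr478 and Olfr488 had the largest decreases. Olfr478 values were 8.73, 8.71, 8.66 and 8.84 in controls and 6.64, 7.02, 6.66 and 6.5 in knockouts (-2.03 ± 0.10, adjusted p = 1.98e-06). Olfr488 had the second highest control mean of all members, with 10.80, 10.48, 10.36 and 10.84 in controls and 8.63, 8.84, 8.76 and 8.28 in knockouts (-1.99 ± 0.14, adjusted p = 1.06e-05). In both, the lowest control lay more than 1 log2 unit above the highest knockout.

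Within Olfr693 to Olfr716, the largest decreases were those of Olfr705 and Olfr711. Olfr705 went from 9.55, 9.17, 9.3 and 9.0 in controls to 7.41, 7.45, 7.27 and 7.41 in knockouts (-1.87 ± 0.11, adjusted p = 3.45e-06). Olfr711 went from 9.54, 8.96, 9.21 and 9.08 to 7.50, 7.39, 7.39 and 7.35 (-1.79 ± 0.11, adjusted p = 5.05e-06). Olfr710, the member before Olfr711 in gene order, differed by only -0.34 ± 0.10 and was not called (adjusted p = 0.0759).

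**Figure D3:**
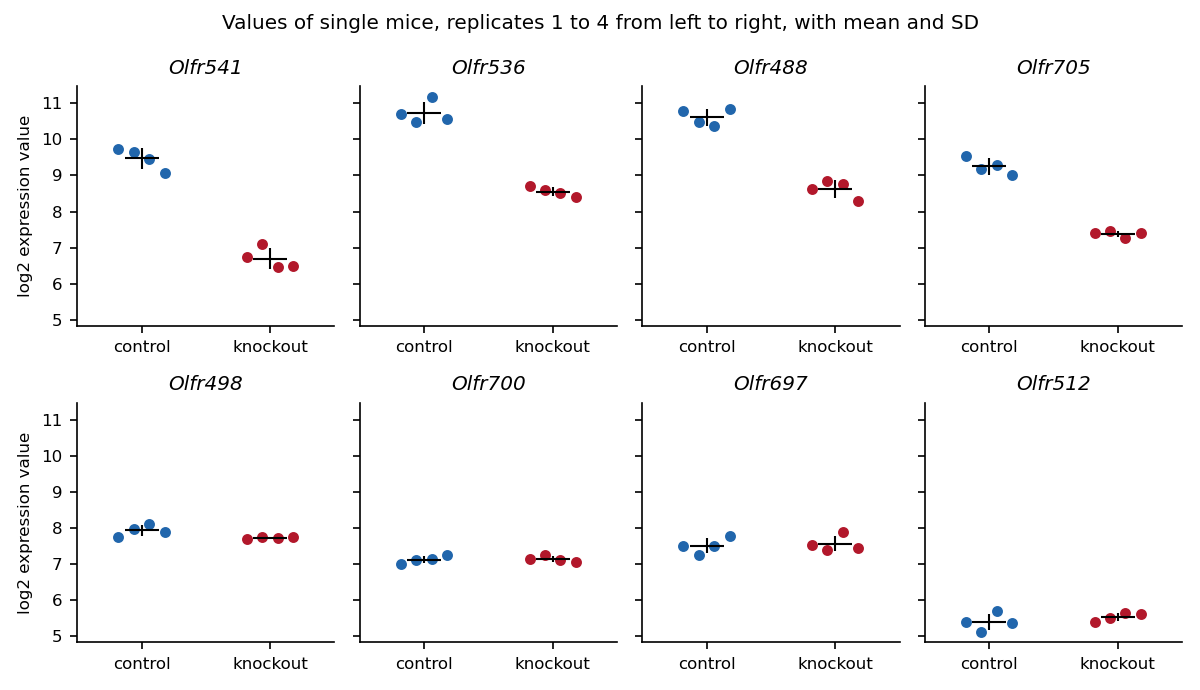
Log2 expression values of 8 member mRNAs in single mice (points, replicates 1 to 4 from left to right in each group), with the mean and SD of 4 mice (black). The groups are widely separated for Olfr541, Olfr536, Olfr488 and Olfr705 and close together or overlapping for Olfr498, Olfr700, Olfr697 and Olfr512.

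The 11 members that were not called had changes between -0.37 and 0.14. Of these, 4 lay above 0: Olfr512 (0.14 ± 0.11), Olfr697 (0.06 ± 0.13), Olfr513 (0.05 ± 0.10) and Olfr700 (0.02 ± 0.07). The others were Olfr514 (-0.08 ± 0.14), Olfr492 (-0.15 ± 0.10), Olfr504 (-0.18 ± 0.08), Olfr498 (-0.20 ± 0.08), Olfr517 (-0.25 ± 0.13), Olfr710 (-0.34 ± 0.10) and Olfr520 (-0.37 ± 0.14). Their adjusted p-values ran from 0.0759 to 0.925. Their 95% intervals ran no lower than -0.67 and no higher than 0.39, so a decrease of the member median lay outside each interval. These intervals cover the measured signal. Control means of these members ran from 5.39 (Olfr512) to 7.93 (Olfr498), and background signal of the array can limit the decrease measurable in dim clusters, which was not tested.

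Single mice show how close the groups were. Olfr700 had 7.0, 7.1, 7.13 and 7.25 in controls and 7.15, 7.25, 7.11 and 7.05 in knockouts. Olfr697 had 7.51, 7.26, 7.49 and 7.79 in controls and 7.53, 7.4, 7.88 and 7.46 in knockouts. Olfr512, with a control mean among the 3 lowest of the 68, had 5.38, 5.13, 5.70 and 5.36 in controls and 5.40, 5.50, 5.63 and 5.61 in knockouts. In all 3 genes the knockout values fell inside or around the control range.

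Olfr498 and Olfr710 were not called although every knockout lay below every control. Olfr498 had 7.76, 7.97, 8.12 and 7.88 in controls and 7.71, 7.74, 7.73 and 7.75 in knockouts, so the groups nearly touched. Conversely, Olfr518 was called (-0.75 ± 0.17, adjusted p = 0.0193) although knockout replicate 3, at 7.54, lay above control replicate 3, at 7.49. The smallest decrease that was called was that of Olfr474 (-0.36 ± 0.08, adjusted p = 0.0168), smaller than the -0.37 of Olfr520, which was not called.

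The size of the change went with the control value. When the members were divided into 3 sets by their mean over all 8 arrays, 15 of 23 in the dimmest set, 19 of 22 in the middle and 23 of 23 in the brightest were called lower, with medians of -0.52, -1.04 and -1.64. The brightest set had a median control mean of 9.26. The run Olfr522 to Olfr541 had 9.54, with a median change of -1.71. Across the 68 members, the correlation of control mean and change was -0.75 (Spearman -0.77), and across 955 other ORs it was -0.51 (Spearman -0.47). These correlations describe values that share the same arrays and the same control measurements, and array signals of different clusters are not abundances on 1 scale.

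Members with similar control values differed in their changes. Among the 22 members with a control mean of 6.5 to 8.0, changes ran from -1.65 to 0.06 and 7 were not called. Olfr510, with 7.77 to 8.15 in controls, differed by -1.65 ± 0.13, while Olfr498, with 7.76 to 8.12 in controls, differed by -0.20 ± 0.08. Olfr472, at 6.63 to 7.42 in controls, fell by 1.61 (SE 0.17), and Olfr700 at 7.0 to 7.25 did not pass the test.

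**Figure D4:**
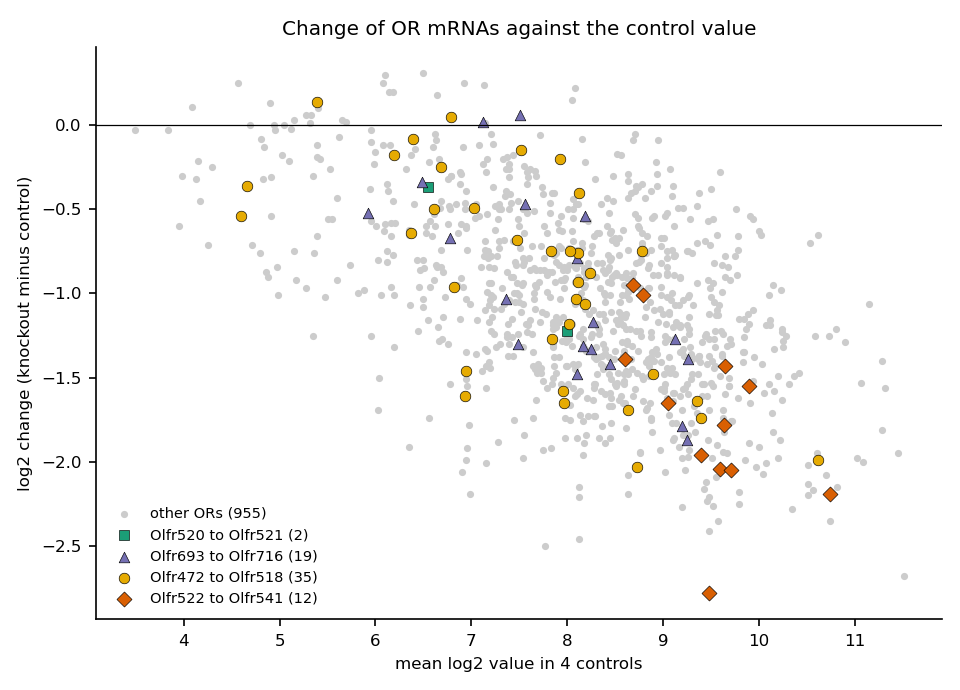
Log2 change (knockout minus control) against the mean log2 value of 4 controls for 955 other ORs (grey) and the members, with a symbol for each run. Members with high control values lie lower on the plot (r = -0.75 over 68 members), and members with control values between 6.5 and 8.0 spread from -1.65 to 0.06.

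Neighbouring members often differed in their changes. In the run Olfr693 to Olfr716 the median difference between adjacent members was 0.71, beside 0.60 over all pairs of the run. It was 0.62 beside 0.63 in Olfr472 to Olfr518 and 0.41 beside 0.54 in Olfr522 to Olfr541. The widest step was between Olfr510 (-1.65) and Olfr512 (0.14), adjacent members that differed by 1.80, followed by Olfr491 and Olfr492 (1.59), by Olfr710 and Olfr711 (1.45) and by Olfr539 and Olfr541 (1.4).

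Receptors that lie inside these runs and have a cluster of their own but are not members also fell. Olfr715b is among them because its symbol has a letter after the number, and the others carry numbers outside the ranges. All 9 were called lower, with a median of -1.76, beside 6.29% of all clusters tested and 83.4% of 955 other OR clusters. For 9 receptors this count is close to the share of other ORs. Their median control value was 9.27, beside 8.1 for the members. Among Olfr693 to Olfr716 they were Olfr6 (-1.95), Olfr2 (-1.65), Olfr17 (-1.19) and Olfr715b (-1.64). Among Olfr522 to Olfr541 they were Olfr60 (-2.21), Olfr46 (-1.76), Olfr61 (-1.12), Olfr53 (-2.25) and Olfr45 (-1.93). Olfr17, also known as P2, and Olfr2, also known as I7, are receptors long used to study OSN axon targeting and odorant response.

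Genes that are not receptors, inside the runs or among the 5 nearest on each side, did not pass the test. Of 36 measured, limma called 0 lower and 0 higher, beside 6.29% and 2.10% of all clusters tested. For 36 genes a count of 0 is close to those shares. Their median was 0.05, with a range of -0.27 (Cyb5r2) to 0.35 (Sprn). At an unadjusted p under 0.05, 1 was lower and 2 were higher, and the methods' t-test with the same adjustment called 0. The 3 that lie between members were Nlrp14 (-0.09 ± 0.12), a gene of oocytes, Cd163l1 (0.11 ± 0.07), a scavenger receptor gene, and 5830411N06Rik (0.04 ± 0.10). All 3 had overlapping groups, beside receptor genes on either side that were called lower.

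Genes without a cluster of their own were measured only by clusters shared with other receptors, whose values cannot be assigned to 1 gene. All 11 shared clusters that name a gene of the ranges were called lower, with a median of -1.23. Several of them name the same receptors, so they are not separate results. The cluster of Olfr694 and Olfr704 differed by -1.37 ± 0.10, beside -1.42 ± 0.19 for the own cluster of Olfr704. The cluster of Olfr486 and Olfr487 differed by -0.91 ± 0.11, beside -0.68 ± 0.08 for the own cluster of Olfr486. The cluster shared by Olfr514, Olfr516, Olfr517, Olfr518 and Olfr519 was called lower (-0.84 ± 0.11), although the own clusters of Olfr514 and Olfr517 were not called. In total 14 members were also named by shared clusters, among them Olfr541, Olfr536, Olfr535, Olfr514 and Olfr517, so signal of related receptors may mix in their values, which was not tested.

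**Figure D5:**
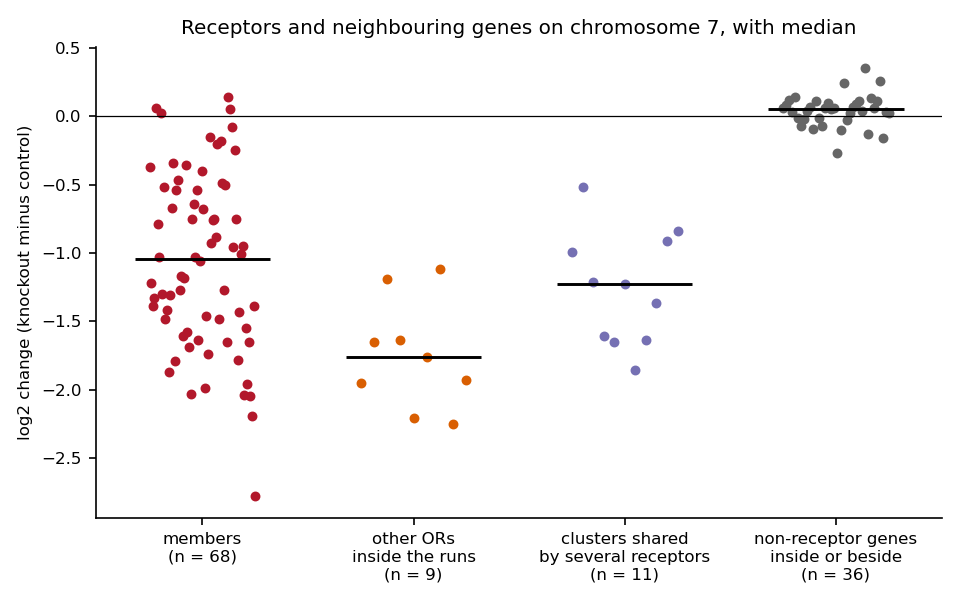
Log2 change (knockout minus control) of the 68 members, of 9 other ORs inside the runs, of 11 clusters shared by several receptors and of 36 genes that are not receptors, each point being a cluster and each black line the median. The receptor groups have medians of -1.05, -1.76 and -1.23, and the other genes lie between -0.27 and 0.35 with a median of 0.05.

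Set beside the other ORs of the array, the members had a similar share of calls and a similar median. Of 955 other OR clusters, 796 (83.4%) were called lower, with a median of -1.04. Among the 109 class I ORs of chromosome 7, Olfr543 to Olfr692, 72 (66.1%) were called lower with a median of -0.82. The class I mean differed by -0.88 among mice numbered from 5, -0.32 among those from 7 and -1.18 among those from 9. For the members these differences were -1.08, -0.95 and -1.16, so the 2 groups were furthest apart among the mice numbered from 7. The difference between these groups and the members was not tested.

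Measured against the mature OSN markers, members lay on both sides. The mean of these 19 markers was 33.8% lower in knockouts (-0.6). That is a larger decrease than the paper reports for its longer list of mature OSN mRNAs, so counts on this scale are not comparable with those of the paper. With each array centred on the mean of the 19 markers, 41 members were called lower and 12 higher, with a median of -0.45. This centring raised the median of all clusters tested to 0.64. On this scale 3.29% of all clusters tested were called lower and 93.3% higher. All 12 members from Olfr522 to Olfr541 remained called lower, with a median of -1.12. From Olfr693 to Olfr716, 11 were lower and 3 higher, and from Olfr472 to Olfr518, 17 were lower and 9 higher. The 12 called higher on this scale were 10 of the 11 members not called before (all except Olfr520), together with Olfr474 (0.23) and Olfr485 (0.20), which were called lower on the deposited scale. On this scale a value above 0 means that the change lay above the mean change of the mature OSN markers, not that abundance rose.

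Genes known to act in OR expression and signalling had a smaller median change than the members. Of 23 such genes, 8 were called lower and 0 higher, with a median of -0.10, while 2 were higher at an unadjusted p under 0.05 and the methods' t-test called 1 higher. Lhx2 is 1 of these 8, and Ebf3, an O/E factor, differed by -0.22 ± 0.05. Atf5, a factor of the unfolded protein response that stabilises OR choice, differed by -0.43 ± 0.06, and Rtp1 (-0.33 ± 0.07) and Rtp2 (-0.42 ± 0.06) encode proteins that carry ORs to the cell surface. The signalling genes Adcy3 (-0.98 ± 0.12), Cnga2 (-0.49 ± 0.05) and Gnal (-0.21 ± 0.06) encode the adenylyl cyclase, a channel subunit and the G protein subunit downstream of ORs. Among the 15 not called were Ldb1, the cofactor of Lhx2 (-0.11 ± 0.05, adjusted p = 0.316), Ebf1 (-0.01), Emx2 (0.17) and Kdm1a (0.11). Adcy3, Cnga2, Gnal, Rtp1 and Rtp2 are also on the list of mature OSN markers.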

How the data were processed

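Groups came from the phenotype of each mouse, and replicate numbers only name mice. The deposited log2 values (2.35 to 14.6), produced by the authors with Affymetrix Expression Console from equal amounts of total RNA, combine all exons of a gene into 1 value per transcript cluster. Its version, the background correction and the build of the array design were not stated in the sources used here. The study rescaled to a long list of mature OSN mRNAs, and the values here were used as deposited. Gene names were those of the platform annotation, brought up to date by Entrez ID. The 23410 clusters with a gene symbol, of 35557, were fitted with limma 3.58.1 (lmFit, eBayes; R 4.3.3), without covariates and with Benjamini-Hochberg adjustment, after the fit was tested on simulated data. P-values set the difference between the groups against the spread between mice, moderated over all clusters fitted. The precision is limited by that spread and by the number of mice. ± after a log2 change is its SE.

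The members and lists were chosen with earlier results of these data known, and the runs were set from gene order after the files were seen. Named members are the 10 largest called decreases without overlap, the 5 highest control means and all members not called. The neighbours, the 23 OR expression genes and the marker lists were likewise written down. Members named besides these illustrate a stated value and were chosen after their values were seen. Alternatives were other centring, quantile normalization, array weights, a block for title series, a low-value filter, all clusters, the methods' t-test, a stricter threshold and leaving out each mouse. Protein identity between members was not analysed here. Figures were drawn with matplotlib 3.10.9.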

Additional observations from a re-analysis of the deposited data

Results flagged for a closer look

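A single mouse stood apart from the other 3 of its group for 2 of the 23 named members. Olfr513 was 6.63 in knockout replicate 3 and 6.89 to 6.91 in the other knockouts. Olfr520 was 6.53 in knockout replicate 3 and 6.07 to 6.08 in the other knockouts, and without that mouse its change was -0.48 and was called (limma adjusted p = 0.0315). In all, 56 groups of 4 mice were examined by Dixon's ratio of the gap to the range, which marks about 1 group in 20 by chance.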

How the results depend on the processing

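Leaving out each mouse in turn gave 53 to 57 members called lower, with medians from -1.09 to -1.03, and 0 called higher. The methods' t-test called 49 lower after Benjamini-Hochberg adjustment and 38 at the threshold of the study, the stricter adjusted threshold called 51, and the filter on low values kept 49 members and called 45. Array weights gave a median of -1.15. Centring on the mature OSN markers called 41 lower and 12 higher, with a median of -0.45 and a mean of -0.47, beside 3.29% and 93.3% of all clusters. It turned 15 members from below to above 0, of which 8 had been called lower and 7 had not: Olfr514 (0.52), Olfr492 (0.44), Olfr504 (0.42), Olfr498 (0.39), Olfr517 (0.34), Olfr710 (0.26) and Olfr520 (0.23). Olfr710 was called with array weights (-0.35) and after quantile normalization (-0.38), and Olfr520 with array weights (-0.53). Of 407 values for 23 named members, 385 kept both their direction and their side of the threshold. Another 14 changed direction, and 8 kept their direction and passed the threshold. Among the 14, Olfr514, Olfr492, Olfr504, Olfr498, Olfr517 and Olfr710 also passed it under centring on the mature OSN markers, while Olfr520 did not. Besides the 7 named under that centring, the changes of direction were those of members near 0 that were not called: Olfr513 (-0.00 with array weights, and -0.01 to 0.12), Olfr514 (-0.20 to 0.01), Olfr697 (-0.05 to 0.15) and Olfr700 (-0.02 to 0.06) when a mouse was left out. The labels give no litter to pair mice by, and the fit with title series as a block called 57 lower. An array's background signal can limit the decrease measurable for dim clusters, and its part was not tested.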
